A study of Mus musculus with 20 samples.

Results

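The growth hormone receptor axis of the liver was described through 10 genes, Ghr, Jak2, Stat5a, Stat5b, Socs2, Cish, Bcl6, Igf1, Igfals and Egfr. They were found as the probe sets annotated to only 1 gene whose symbol is among these names. A total of 30 probe sets covered all 10 genes, of 18193 genes named on the array. For each gene the probe set brightest on average across the 20 arrays represents it, and the other 20 probe sets served as a check. All 10 genes were among the 12952 that passed a filter on low values, so every member was tested.

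Total RNA came from whole livers of male BALB/c mice that were 6 weeks old on arrival, with 1 Affymetrix array per mouse and 5 arrays in each of 4 groups (each group held 6 mice). Untreated mice had no injection and ate the AIN93G diet. Mice of the other 3 groups had an intraperitoneal injection of streptozotocin (STZ), which kills pancreatic beta cells, at 185 mg/kg in citrate buffer, and entered with non-fasting blood glucose of 330 to 590 mg/dL. They ate AIN93G alone (called STZ here), or AIN93G with 0.1% or 0.5% phloridzin, a plant glucoside that blocks sodium-coupled glucose transporters, for 14 days. The untreated mice were not injected with buffer, so injection and diabetes cannot be told apart. Mice were housed 3 to a cage, and the cage of each mouse and the hour of killing are not given in the sources used here, which matters because growth hormone is released in pulses.

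Growth hormone binds GHR on the hepatocyte, and the receptor-bound kinase JAK2 then phosphorylates STAT5A and STAT5B, which enter the nucleus and bind DNA. STAT5 induces Igf1, the main circulating growth factor made by liver, and Igfals, whose product holds IGF1 in a long-lived serum complex, as well as the feedback inhibitors Socs2 and Cish. It also represses Bcl6, a transcriptional repressor that competes for STAT5 sites. Egfr, the hepatocyte receptor of epidermal growth factor, is kept high in liver by growth hormone. Messenger RNA levels do not report phosphorylation of JAK2 or STAT5, which was not measured.

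Signals were the linear values deposited by the authors, with a trimmed mean of 100 on every array and array medians between 11.2 and 17.1. The hepatocyte markers, 12 of 14 on the array, summed to 117400 to 132700 in untreated and 88100 to 125100 in STZ livers. They summed to 112200 to 245000 with 0.1% and 105100 to 123600 with 0.5% phloridzin. The median log2 difference of the 12 was 0.38 for 0.1% against STZ and -0.31 for 0.5% against 0.1%. Over all genes these medians were -0.004 and 0.02, so hepatocyte markers were not level across the diets. One STZ mouse, replicate 1, stood apart. Its signal for Cyp4a14, a fatty acid hydroxylase of the ketotic liver, was 48.9, against 2710 to 5867 in the other 4 STZ mice and 5.80 to 33.1 in untreated mice. One 0.1% phloridzin mouse, replicate 4, had the highest single signal of the series, 37014, where no other array went above 20257. Its spike-in controls (9 probe sets of the BioB, BioC, BioDn and CreX hybridization controls) averaged 3241, against 557 to 943 in the untreated and STZ arrays. The main limma results of members and gene lists below, in the deposited scaling, were recomputed without either mouse. Values scaled to the spike-in controls were not. The Igf1 to Ghr ratio and the member pairs were recomputed without STZ replicate 1 but not with 0.1% replicate 4 alone left out. Of 11 lists of cell type markers, 2 had sums that did not overlap between untreated and STZ livers, namely B and plasma cells and pancreas, and both were lower after STZ. The erythroid sum joined them in both phloridzin groups (151 to 1110 and 229 to 895, against 1280 to 1466 in untreated livers). The pancreas sum was nearly all from a single gene, Cela1 (1435 to 1910 in untreated and 378 to 872 in STZ livers). The erythroid sum was nearly all from Alas2 (1258 to 1443 in untreated livers). A sum that rests on a single gene does not measure a cell type. Of 11 stellate cell and fibroblast markers 4 fell in each of the 3 groups given STZ, although their sums overlapped with the untreated range (2953 to 3919 in STZ against 3536 to 4879). The part of these cells in the results below was not tested.

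With arrays as scaled by the authors, the axis in STZ livers was lower at the receptor and at the STAT5 genes. The transcript of its main product, Igf1, stayed near its untreated level in that scaling. Ghr, Stat5a, Stat5b, Bcl6 and Egfr fell and no member rose (5 of 10 at an adjusted p under 0.05 in limma, Benjamini-Hochberg over 12952 genes). Over all genes 13.8% passed the same test, 6.93% in the lower and 6.9% in the higher direction. The untreated and STZ ranges did not overlap for 4 of the 10 members, against 12.9% of all genes. The median difference was -0.34 on the log2 scale over the members and -0.05 over all genes. All differences and folds are on the scale of log2 of signal plus 16, which understates the change of dim genes such as Socs2 and Cish. P-values rest on the spread between mice. The levels depend on how arrays are scaled. With each array scaled to its spike-in controls, whose mean log2 signal differed by -0.38 between STZ and untreated arrays, the median of all genes was 0.24 and not -0.05. All 5 differences kept their direction under that scaling but 0 of 10 members passed in limma, with 2, Bcl6 and Egfr, at an unadjusted p under 0.05. The share of all genes at that unadjusted threshold is not given here. Bcl6 was then at -0.93 (adjusted p = 0.0988) and Ghr at -0.24 (0.686), and Egfr had an adjusted p of 0.13. Igf1 was then at 0.36 (0.494).

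**Figure D1:**
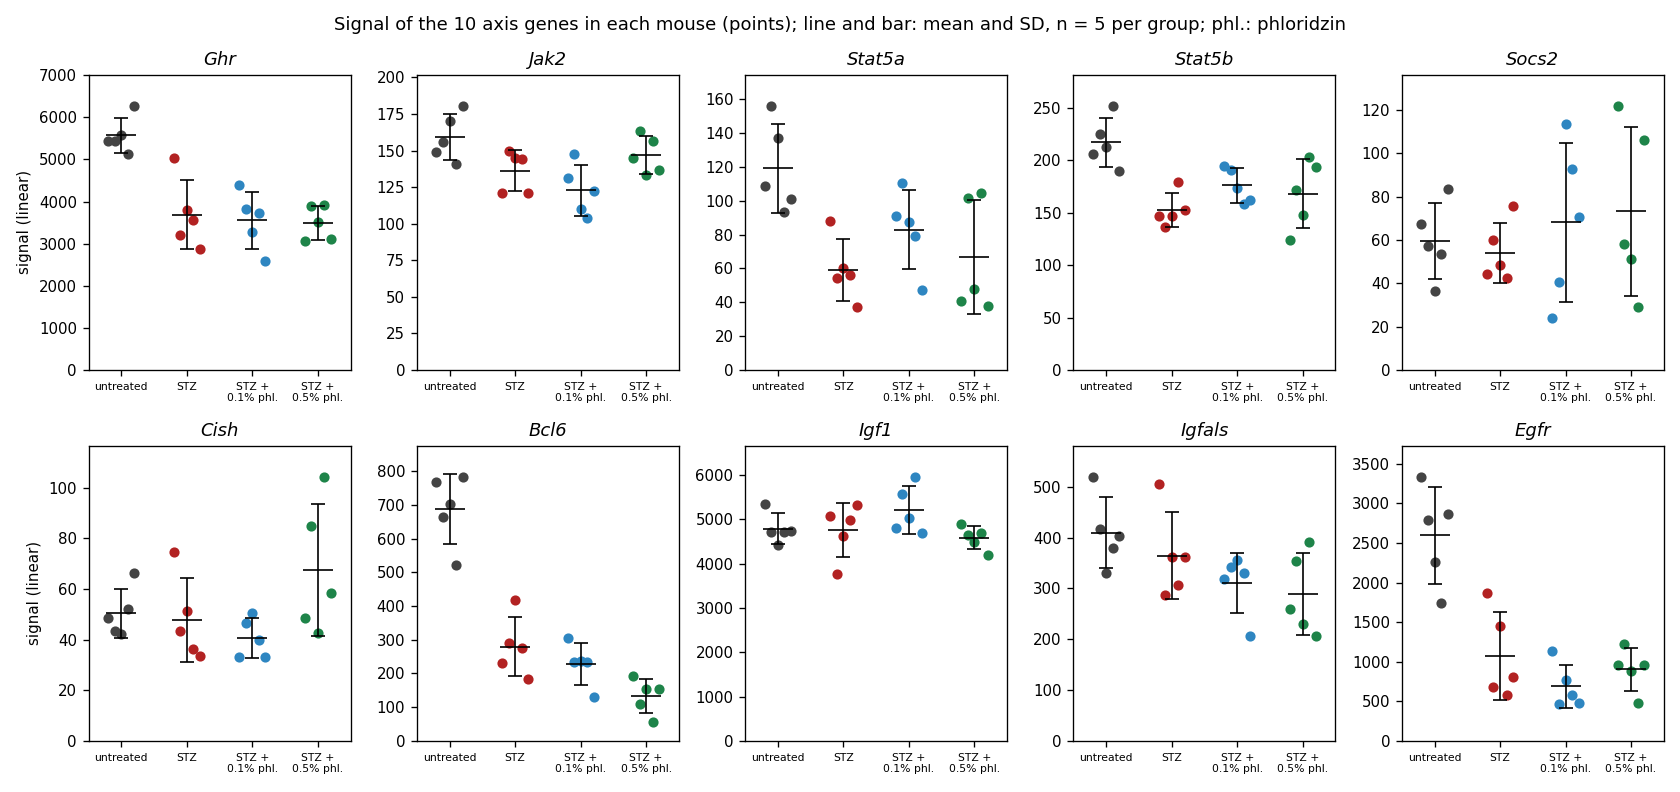
Linear signal of each of the 10 genes (1 probe set each, vertical axes starting at 0) in every mouse of the 4 groups, with the mean and SD, n = 5. Ghr, Bcl6 and Egfr lie lower in each group given STZ, with Ghr means of 3693, 3555 and 3498 against 5571 in untreated mice, while the Igf1 means run from 4581 to 5204.

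Ghr, the receptor itself, had signals of 5451, 5447, 5571, 5124 and 6260 in the untreated mice. The 5 STZ mice read 5024, 3214, 3791, 3564 and 2872. Every STZ mouse lay below every untreated mouse, and the highest of them, 5024, was the replicate 1 mouse with little Cyp4a14. Ghr fell by 0.61 ± 0.14 (SE) on the log2 scale, 1.53-fold, with an adjusted p of 0.0072 in limma. Without STZ replicate 1 the difference was -0.73 and still passed. In bulk liver RNA, fewer hepatocytes and less Ghr RNA per hepatocyte cannot be told apart.

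The other Ghr probe sets read the same direction. Ghr transcripts encode both the full receptor and, by alternative splicing in the mouse, the circulating growth hormone binding protein, and which form each probe set reads was not established here. The second probe set had group means of 3816 in untreated and 2665 in STZ livers, a difference of -0.54 that passed. The dimmest had means of 857 and 550, a difference of -0.70 with an adjusted p of 0.179.

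Jak2, the kinase bound to the receptor, had untreated signals of 149, 156, 170.3, 141 and 180.2. In STZ mice it read 121, 149.5, 145, 144 and 121, ranges that overlapped. The difference of -0.20 did not pass (adjusted p = 0.189, limma), and the second Jak2 probe set gave 0.01.

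Stat5a and Stat5b are neighbouring genes for near-identical transcription factors, of which Stat5b is the main form acting in liver. Stat5a signals were 109, 156, 137, 93.3 and 101 in untreated and 88.2, 54.6, 60.1, 56.2 and 37.4 in STZ mice. The groups did not overlap, although the highest STZ mouse, again replicate 1, lay just under the lowest untreated mouse. Stat5a fell by 0.86 ± 0.24, 1.81-fold, with an adjusted p of 0.02. This call was lost without untreated replicate 2 (0.0561), untreated replicate 3 (0.0502) or STZ replicate 5 (0.0633).

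Stat5b read 206, 226, 213, 252 and 189.7 in untreated mice. In STZ mice it read 147, 137, 147, 179.9 and 152, all below the lowest untreated mouse. Stat5b fell by 0.47 ± 0.12, 1.38-fold, with an adjusted p of 0.0112 in limma, and with arrays centred on their medians the adjusted p was 0.0597. The second probe sets of both genes had the same sign without passing, -0.70 for Stat5a (0.0718) and -0.40 for Stat5b (0.266). The paired genes share much sequence, and how far their probe sets read each other's RNA was not tested.

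Socs2 and Cish are the classical feedback inhibitors that STAT5 switches on within a growth hormone pulse. Socs2 signals were 67.5, 57.4, 36.3, 53.3 and 83.4 in untreated mice and 44.2, 59.96, 48.3, 42.5 and 75.6 in STZ mice. Cish signals were 48.4, 43.3, 42.2, 51.9 and 66.2 in untreated mice and 74.7, 43.2, 51.4, 36.1 and 33.4 in STZ mice. Both genes overlapped between the groups. The log2 difference was -0.10 for Socs2, with a 95% interval of -0.72 to 0.53, and -0.08 for Cish, with an interval of -0.47 to 0.31. The Socs2 interval is wide enough to hold a fall as large as that of Ghr, and that of Cish holds one as large as that of Stat5b, so these data do not bound the feedback genes more tightly than that. The lowest adjusted p among the 6 Socs2 probe sets was 0.406 (limma).

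Bcl6 carries STAT5-type sequences at its start sites. The windows below are the 250 bases before its 2 RefSeq start sites (GRCm38.p6, minus strand), chr16:23988853-23989102 and chr16:23981284-23981533, written 5′ to 3′ with each match to TTCNNNGAA, the palindrome that STAT proteins recognise, in capitals. The first holds 1 match and the second holds 3.
Bcl6 first start: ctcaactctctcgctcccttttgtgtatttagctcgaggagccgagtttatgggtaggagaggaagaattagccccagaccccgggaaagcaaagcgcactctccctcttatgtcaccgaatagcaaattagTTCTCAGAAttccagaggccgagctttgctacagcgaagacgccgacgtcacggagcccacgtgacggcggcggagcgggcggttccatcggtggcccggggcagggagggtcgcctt
Bcl6 second start: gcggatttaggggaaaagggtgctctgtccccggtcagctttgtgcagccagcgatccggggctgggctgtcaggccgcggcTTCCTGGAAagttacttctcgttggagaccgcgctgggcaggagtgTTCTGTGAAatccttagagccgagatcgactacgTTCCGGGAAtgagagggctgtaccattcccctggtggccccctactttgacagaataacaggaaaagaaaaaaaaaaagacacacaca
The matches at the second start lie 168, 122 and 88 bases upstream of it, and the match at the first start lies 118 bases upstream. Of 32851 mouse start sites, 7.02% had at least 1 match in a window of this length and 0.317% had 2 or more. Of the 9 members with a listed start, Bcl6 and Igfals had a match and Ghr, Jak2, Stat5a, Stat5b, Cish, Igf1 and Egfr had none in these windows. The motif reads the same on both strands, and a match is a description of letters, not a measured binding site.

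Bcl6 signals were 770, 663, 703, 523 and 782 in untreated mice. In STZ mice they were 231, 290, 417, 275 and 185, with every STZ mouse below every untreated mouse. Bcl6 fell by 1.29 ± 0.25, 2.44-fold, with an adjusted p of 0.00184 in limma, and by 1.23 without STZ replicate 1. A dimmer Bcl6 probe set, with means of 141 and 68.3, had a difference of -0.88 and also passed (0.0449). As background, growth hormone signalling lowers Bcl6 in liver.

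Bcl6 is also a B cell gene, and B and plasma cell markers moved in the same direction. The 6 of 8 such markers on the array summed to 415 to 548 in untreated livers, 129 to 189 in STZ, 109 to 395 in 0.1% phloridzin and 146 to 201 in 0.5% phloridzin livers. Of the 6, 2 fell after STZ, the immunoglobulin genes Ighm and Jchain. The B cell surface genes Cd79a, Cd79b and Ms4a1 read from 3.68 to 25.8 in untreated livers and did not pass. The part of B cells in the Bcl6 difference was not tested.

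Igf1, the secreted product of the axis, had signals of 5353, 4714, 4420, 4720 and 4730 in untreated mice. In STZ mice it read 5078, 3753, 4625, 4984 and 5323, with the lowest and the second highest value of both groups among them. The log2 difference was -0.02 ± 0.10, with a 95% interval of -0.23 to 0.19 and an adjusted p of 0.929. That interval does not reach the Ghr difference of -0.61. The other 3 Igf1 probe sets gave 0.20, 0.10 and -0.04, with a lowest adjusted p of 0.266 (limma). With arrays scaled to spike-in controls Igf1 was at 0.36 and Ghr at -0.24 (adjusted p = 0.494 and 0.686, limma). The Igf1 interval above therefore holds only for the deposited scaling.

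Igf1 and Ghr parted within the same livers. A single scaling factor per array leaves the log2 ratio of Igf1 to Ghr almost unchanged at these signals. Quantile normalization can move it, and the ratio was not recomputed that way. The ratio ranged from -0.40 to -0.03 in untreated mice and from 0.02 to 0.89 in STZ mice. Its mean differed by 0.60 between STZ and untreated, by 0.78 between 0.1% phloridzin and untreated, and by 0.61 between 0.5% phloridzin and untreated. Each of the 3 comparisons, which share the untreated mice, had an exact two-sided permutation p of 0.00794 (0.00794 after Benjamini-Hochberg over the 3), the smallest that 252 splits of 5 against 5 allow. Without STZ replicate 1 the STZ difference was 0.69. This ratio was chosen after the values had been seen, and its level has no meaning of its own because the genes are read by different probes.

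**Figure D2:**
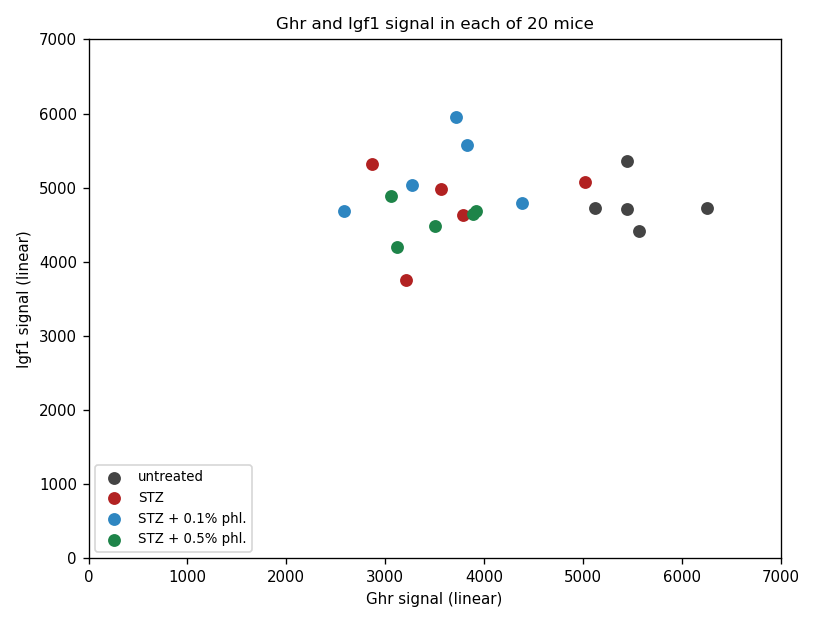
Igf1 signal (vertical) against Ghr signal (horizontal), both linear and from 0, in each of the 20 mice, coloured by group. The 5 untreated mice lie to the right, at Ghr of 5124 or more, and every mouse given STZ lies at 5024 or less, while Igf1 spans 3753 to 5947 with no such split.

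Igfals encodes the acid-labile subunit that stabilises IGF1 in blood and is a hepatocyte target of STAT5. Of its 3 listed starts on chromosome 17, 2 had a match to TTCNNNGAA, shown with flanks (GRCm38.p6, plus strand, chr17:24877598-24877626 and chr17:24878163-24878191).
Igfals first start: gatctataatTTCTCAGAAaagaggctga
Igfals second start: ctgccaggtgTTCCTAGAAgaggccctgg
These lie 236 and 58 bases upstream of their starts. Igfals signals were 519, 417, 329.7, 379 and 403 in untreated mice and 505, 287, 363, 306 and 362 in STZ mice. The ranges overlapped and the highest STZ value was again that of replicate 1. The difference was -0.17, with an interval of -0.55 to 0.21 (adjusted p = 0.571).

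Egfr read 3330, 2793, 2261, 1736 and 2867 in untreated mice. In STZ mice it read 1864, 677, 1452, 579.5 and 806. One STZ mouse, replicate 1 at 1864, lay above the lowest untreated mouse, and the other 4 lay below all of them. Egfr fell by 1.37 ± 0.31, 2.59-fold, with an adjusted p of 0.00551 in limma, and by 1.60 without STZ replicate 1.

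The Egfr probe sets split by brightness. Of the 7, 3 passed, those with the highest mean signals (1316, 568 and 550), with differences of -1.37, -1.01 and -1.25. A probe set with a mean of 142 gave -0.98 without passing (0.103). The 3 dimmest, with means of 23.2, 21.3 and 2.31, the last of them below the filter on low values, gave -0.01, -0.34 and -0.11.

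**Figure D3:**
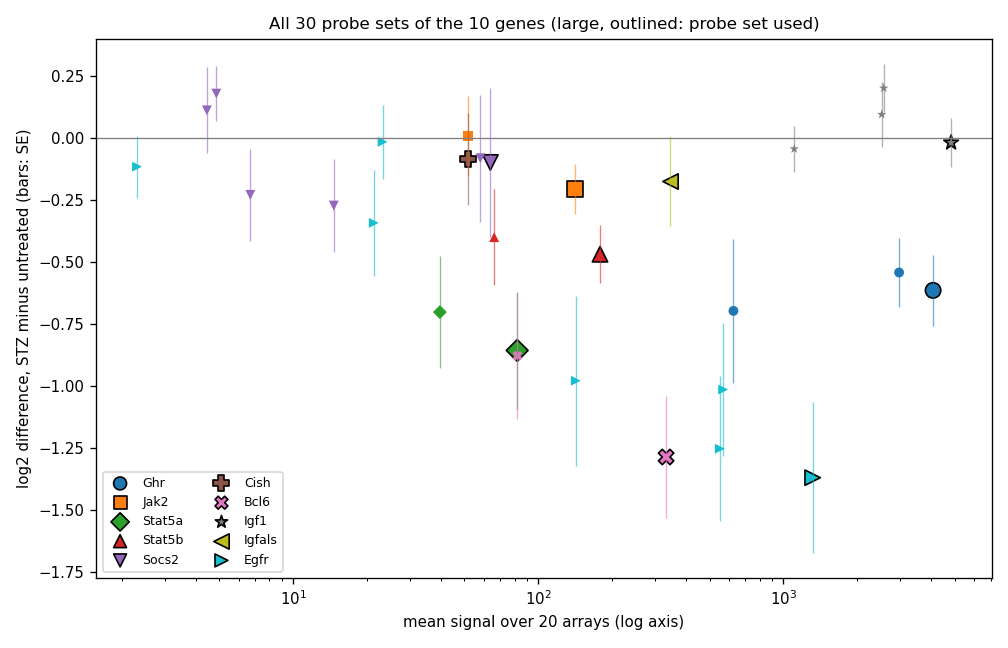
Log2 difference of STZ against untreated (vertical, bars are SE) for all 30 probe sets of the 10 genes against their mean signal over 20 arrays (horizontal, log axis). The 3 Ghr and 2 Bcl6 probe sets all lie below 0, the 4 Igf1 probe sets lie between -0.04 and 0.20, and the Egfr probe sets approach 0 at low signal.

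Phloridzin in the diet was compared with the plain diet among diabetic mice. At 0.1% and at 0.5%, 0 of 10 members passed against STZ, and over all 12952 genes 0% passed in either comparison (limma). At an unadjusted p under 0.05 there were 0 members for 0.1% and 1 for 0.5%, Bcl6. In both comparisons 0 members had ranges that did not overlap, against 0.679% and 0.849% of all genes. Both comparisons share the 5 STZ mice. With arrays scaled to spike-in controls 0 members passed in either comparison. At an unadjusted p under 0.05 in limma there were then 6 for 0.1% and 1, Bcl6, for 0.5%. The 6 were Bcl6, Cish, Egfr, Ghr, Igfals and Jak2, all lower, with Ghr at -0.73 and Egfr at -1.22 (adjusted p = 0.099 for both). The median of all genes for 0.1% against STZ was -0.51 under that scaling, so lower values were not particular to the members. The 0.1% group holds replicate 4, whose spike-in controls averaged 3241, and this scaling was not repeated without it. The share of all genes at an unadjusted p under 0.05 is not given here, so the unadjusted counts are not a result about the members.

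The receptor read 4384, 3825, 3268, 3719 and 2580 with 0.1% phloridzin and 3057, 3890, 3509, 3918 and 3117 with 0.5%. Every one of these 10 Ghr signals was below the lowest untreated mouse. Against STZ the difference was -0.05 at 0.1% (95% interval -0.35 to 0.25) and -0.06 at 0.5% (-0.36 to 0.24). The upper bounds lie below 0.61, the size of the fall after STZ, so a full return of Ghr to the untreated level lies outside both intervals.

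Bcl6 was the member with the largest difference between the diets. It read 305, 233, 238, 235 and 131 with 0.1% phloridzin and 191, 109, 154.5, 56.9 and 153 with 0.5%. Of the 5 mice on 0.5%, 4 lay below the lowest STZ mouse at 185 and 1 lay just above it. The difference between 0.5% and STZ was -1.03 ± 0.25, with an interval of -1.54 to -0.51 and an adjusted p of 0.863 (0.000488 before adjustment). The second Bcl6 probe set gave -0.48, and the difference fails the correction over all genes. The direction is away from the untreated level.

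Egfr read 1130, 468, 775, 579.9 and 481 with 0.1% phloridzin and 964, 1223, 882, 484 and 957 with 0.5%. Its difference from STZ was -0.57 (-1.21 to 0.07) at 0.1% and -0.16 (-0.80 to 0.47) at 0.5%. Both upper bounds lie below the size of the fall after STZ.

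The STAT5 genes were more spread among the mice on 0.5% phloridzin than in the other groups, with an SD on the log2 scale of 0.58 for Stat5a and 0.27 for Stat5b against at most 0.37 and 0.14 elsewhere, a difference in spread that was not tested. Stat5a read 91.2, 110.4, 87.2, 79.0 and 47.2 with 0.1% and 41.1, 102, 47.9, 105 and 37.5 with 0.5%, where a pair of the 5 mice lay within the untreated range and 3 mice lay at or below 47.9. Stat5b read 195, 191, 174, 158.5 and 162 with 0.1% and 124, 172, 148, 204 and 194 with 0.5%. Against STZ, the Stat5a interval was -0.10 to 0.88 at 0.1% and -0.42 to 0.56 at 0.5%, and that of Stat5b was -0.05 to 0.43 and -0.13 to 0.36. The Stat5a interval at 0.1% holds both no change and a full return to the untreated level.

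Igf1 read 4792, 5570, 5029, 5947 and 4683 with 0.1% phloridzin and 4892, 4644, 4486, 4679 and 4203 with 0.5%. The highest, 5947, was the replicate 4 mouse with bright spike-in controls. Igf1 differed from STZ by 0.13 (-0.07 to 0.34) at 0.1% and by -0.04 (-0.25 to 0.16) at 0.5%. The other Igf1 probe sets were below STZ at both doses. They were at -0.20, -0.095 and -0.18 with 0.1% and at -0.25, -0.11 and -0.27 with 0.5%. None of them passed, and the sign at 0.1% depends on the probe set. Igfals read 318, 342, 356, 330.5 and 207 with 0.1% and 259, 354, 229, 392 and 207 with 0.5%, differences of -0.22 (-0.60 to 0.16) and -0.34 (-0.72 to 0.04).

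The feedback inhibitors and Jak2 had no difference from STZ that passed. Socs2 ranged from 23.9 to 113 (median 70.4) with 0.1% and from 29.1 to 122 (median 58.0) with 0.5%, a wider range than the 42.5 to 75.6 of the STZ mice. Cish ranged from 33.0 to 50.7 with 0.1% and from 42.4 to 104 with 0.5%. Jak2 ranged from 104 to 148 with 0.1% and from 134 to 164 with 0.5%.

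Between the doses, 0.5% against 0.1%, 0 of 10 members passed and 0% of all genes did. At an unadjusted p under 0.05 there were 3 members, Bcl6 at -0.76 (0.00616), Cish at 0.52 (0.0112) and Jak2 at 0.24 (0.0297), each with an adjusted p of 0.753 in limma. The ranges of the doses overlapped for all 10 members, and 0.803% of all genes had ranges that did not. With arrays scaled to spike-in controls 0 members passed between the doses. Then 4 members, Cish, Egfr, Ghr and Jak2, all higher, had an unadjusted p under 0.05 in limma. The median of all genes was 0.50 under that scaling, which again includes 0.1% replicate 4 with its bright spike-in controls. The share of all genes at an unadjusted p under 0.05 is not given here for either scaling, so neither count is a result about the members.

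**Figure D4:**
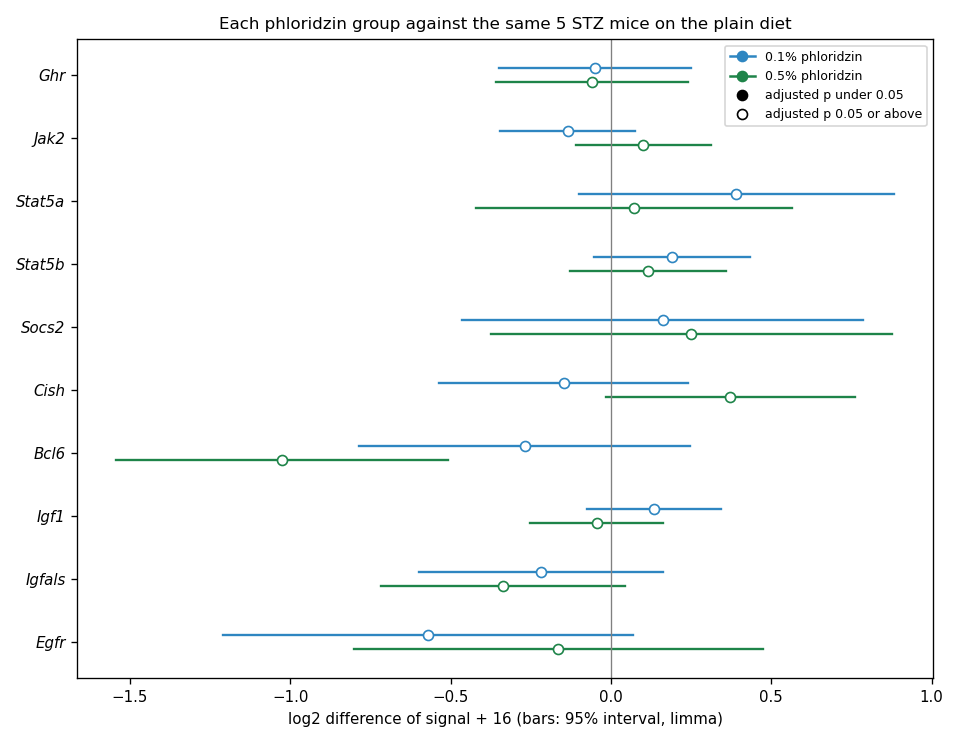
Log2 difference of each phloridzin group against the same 5 STZ mice for the 10 genes, with 95% intervals from limma (open points: adjusted p of 0.05 or above). All 20 points are open, and the interval of Bcl6 at 0.5% phloridzin, -1.54 to -0.51, is the only one that does not hold 0.

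Both phloridzin groups were also set against the untreated mice, which all 3 such comparisons share. With 0.1% phloridzin, 4 of 10 members fell and none rose, against 16.8% of all genes in either direction, 9.03% lower and 7.77% higher. They were Egfr at -1.94 (3.84-fold, adjusted p = 0.00031), Bcl6 at -1.56 (2.94-fold, 0.000338), Ghr at -0.66 (1.59-fold, 0.00384) and Jak2 at -0.34 (1.27-fold, 0.0251). The ranges of 3 members, Ghr, Bcl6 and Egfr, did not overlap those of untreated mice, against 13.2% of all genes. Jak2 was no longer called without untreated replicate 3 (0.0619) or 5 (0.0644), or without 0.1% replicate 3 (0.0645) or 4 (0.0718). The Jak2 call was also lost with median centring (0.0704), averaged probe sets (0.0681) and a fit of only the 2 groups (0.0589). The second Jak2 probe set was at -0.19 (0.57).

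With 0.5% phloridzin, 4 of 10 members fell and none rose, against 12.7% of all genes in either direction, 6.2% lower and 6.54% higher. Bcl6 was at -2.31 (4.97-fold, adjusted p = 5e-06, limma), Egfr at -1.53 (2.90-fold, 0.00293), Ghr at -0.67 (1.60-fold, 0.00443) and Stat5a at -0.78 (1.72-fold, 0.0335). The ranges of 3 members did not overlap, against 11.2% of all genes. Stat5b was at -0.35 (0.0511) and Igfals at -0.51 (0.071), both above the threshold. The Stat5a call was lost without any of untreated replicates 1, 2 and 3 (0.0569 to 0.0859) or 0.5% replicates 1, 3 and 5 (0.081 to 0.105). It was also lost in a fit of only the 2 groups (0.0521), and the second Stat5a probe set was at -0.67 (0.0899). The count of 4 went down to 3 or up to 6 as single arrays were left out, up to 6 where Igfals and Stat5b were gained without 0.5% replicate 4 (0.0286 and 0.024).

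Igf1 stood at 0.12 (-0.09 to 0.32) against untreated with 0.1% phloridzin and at -0.06 (-0.27 to 0.15) with 0.5%. With arrays scaled to spike-in controls Igf1 was at -0.19 and 0.27 (adjusted p = 0.758 and 0.622, limma). In the deposited scaling the other Igf1 probe sets were at -0.002, 0.0008 and -0.22 with 0.1% phloridzin. With 0.5% they were at -0.05, -0.01 and -0.32, the last just short of passing (adjusted p = 0.0518, limma). Over the 4 groups together, the moderated F test of limma called 5 of 10 members, Bcl6 (2.84e-05), Egfr (0.0013), Ghr (0.00617), Stat5b (0.0414) and Stat5a (0.0496), against 12.9% of all genes. Only Bcl6, Egfr and Ghr were left when any of untreated replicates 1 to 4, STZ replicates 2, 3 and 5, 0.1% replicate 3 or 0.5% replicate 3 was left out, and likewise with median centring, no filter, averaged probe sets or a pseudocount of 1. With arrays scaled to spike-in controls Bcl6 and Egfr were left. Ghr, Bcl6 and Egfr were called against untreated mice in all 3 comparisons, and in each of the 20 fits that left out 1 array. Their check probe sets were less uniform. With 0.1% phloridzin the other Ghr probe sets were at -0.42 (0.0752) and -0.61 (0.225) and the second Bcl6 probe set was at -0.78 (0.0639), none of which passed, while 3 further Egfr probe sets did. With 0.5% the second Ghr probe set at -0.62 (0.012), the second Bcl6 probe set at -1.35 (0.00361) and 2 further Egfr probe sets passed. With arrays scaled to spike-in controls, 2 members, Bcl6 and Egfr, were called with 0.1% and 1, Bcl6, with 0.5% phloridzin.

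**Figure D5:**
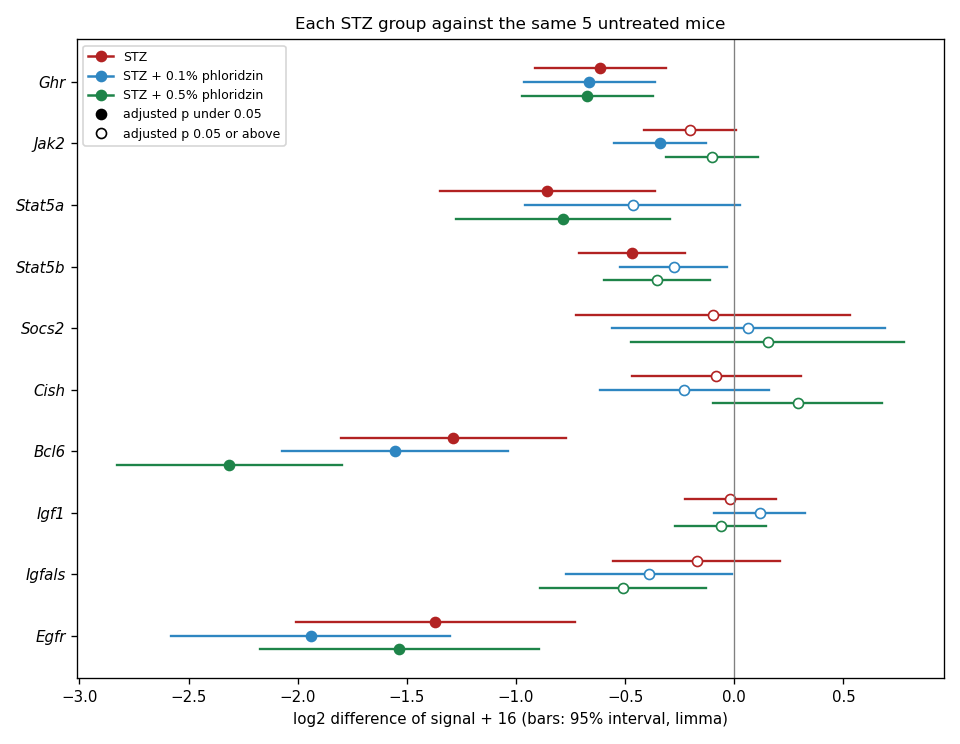
Log2 difference of each STZ group against the same 5 untreated mice for the 10 genes, with 95% intervals from limma (filled points: adjusted p under 0.05). Ghr, Bcl6 and Egfr are filled in all 3 groups, Bcl6 reaching -2.31 with 0.5% phloridzin, and the 3 Igf1 points lie between -0.06 and 0.12.

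Whether members varied together from mouse to mouse was examined over the 20 mice after group means were removed, for 8 pairs. Ghr and Igfals had a Pearson r of 0.66 (permutation p = 0.00603, 0.0482 after Benjamini-Hochberg over the 8 pairs) and a Spearman rho of 0.62 (0.0112, adjusted 0.0448). Without the 2 mice farthest from the median of Ghr, r was 0.43 (permutation p = 0.127), so the relation rests in part on those mice. Igf1 and Igfals, both secreted products, had r of 0.58 (permutation p = 0.0133, adjusted 0.0532) and rho of 0.59 (0.00953, adjusted 0.0448), and r of 0.57 without the 2 farthest mice. Ghr and Igf1 had r of 0.22 (permutation p = 0.483) and rho of 0.25 (0.362). The other 5 pairs, Ghr with Egfr at 0.49, Stat5a with Stat5b at 0.35, and Socs2 with Igf1, Cish and Bcl6 between -0.16 and 0.22, had adjusted permutation p-values of 0.206 or more. Both genes of a pair are read from 1 array and share its scaling.

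Around the receptor, other JAK-STAT signalling genes and their brakes moved in both directions after STZ. Of 24 of 29 listed genes that passed the filter, 3 rose and 3 fell, 25.0% against 13.8% of all genes, with a median of 0.04 where all genes had -0.05. Those that rose were Sh2b3, an adaptor that restrains JAK2, at 0.47 (adjusted p = 0.00314, limma), the cytokine receptor kinase Jak1 at 0.41 (0.0116) and the phosphatase Ptpn11 at 0.34 (0.0412). Those that fell were Sirpa, a membrane docking protein for that phosphatase, at -0.99 (0.00517), Socs4 at -0.57 (0.00335) and the ubiquitin ligase Cbl at -0.44 (0.0462). With 0.1% phloridzin 4 rose and 2 fell against untreated, 25.0% against 16.8% of all genes, Stat3 among the former at 0.67 (0.00591). With 0.5% 1 rose and 2 fell, 12.5%, a share near the 12.7% of all genes. As single arrays were left out, between 2 and 4 rose and between 2 and 4 fell after STZ. With probe sets averaged 1 rose and 2 fell, and with arrays scaled to spike-in controls 0 rose and 0 fell.

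Among IGF ligands, receptors and binding proteins, 16 of 18 passed the filter, of which 2 rose and 1 fell after STZ, 18.8% against 13.8% of all genes (median -0.08). The binding proteins Igfbp1, an insulin-repressed gene of the hepatocyte, and Igfbp2 rose 3.35-fold (adjusted p = 0.0393, limma) and 2.94-fold (0.00349). Grb10, an adaptor that inhibits the insulin and IGF1 receptors, fell by 0.46 on the log2 scale (0.0274). All 3 also passed in the same direction in both phloridzin groups against untreated. With 0.1% phloridzin 3 rose and 3 fell, 37.5% against 16.8% of all genes. Those added were Igf2r at 0.52 (0.0178), Igfbp3, the main serum carrier of IGF1, at -0.76 (0.00269) and the protease Htra1 at -0.68 (0.0133). Igfbp3 was at -0.45 after STZ alone (0.0632) and at -0.45 with 0.5% phloridzin (0.0657). With 0.5% 2 genes of the list rose and 1 fell, 18.8% against 12.7% of all genes. As single arrays were left out, the genes of the list called after STZ numbered 1 to 2 higher and 0 to 3 lower, the 3 without STZ replicate 1. With arrays scaled to spike-in controls they were 2 higher and 0 lower.

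Among EGF family ligands, receptors and brakes, 14 of 17 passed the filter, and 1 rose and 1 fell after STZ, 14.3%, a share near the 13.8% of all genes (median -0.07). Nrg4, a ligand of the EGF receptor family, rose 7.85-fold, by 2.97 ± 0.55 (adjusted p = 0.00136, limma), and stood 6.25-fold and 7.98-fold above untreated with 0.1% and 0.5% phloridzin. Lrig1, a membrane protein that promotes loss of EGF receptors, fell by 0.44 (0.017), and with 0.1% phloridzin was at -0.39 (0.0297), where again 1 gene rose and 1 fell. With 0.5% phloridzin 2 rose and none fell, Nrg4 and the docking protein Gab1 at 0.70 (0.0122). The called share was 14.3% in both phloridzin groups, against 16.8% of all genes with 0.1% and 12.7% with 0.5%. With arrays scaled to spike-in controls 1 gene of the list rose and 0 fell in each of the 3 comparisons with untreated.

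Liver genes known to depend on the male pulse of growth hormone were also counted. Growth hormone itself was not measured, and the part of other inputs in these genes was not tested. Of 20 of 25 genes sustained by it that passed the filter, 15 fell and none rose after STZ (median -1.25), with Cyp7b1 at -1.51, Serpina12 at -3.81 and Elovl3 at -4.08. Of 20 of 27 genes repressed by it, 13 rose and none fell (median 1.34), with Cyp17a1 at 4.01, Cyp2b9 at 3.89 and Acot3 at 2.96. Over all genes 6.93% fell and 6.9% rose after STZ, with a median of -0.05. Of the sustained genes, 15 fell and 1 rose with 0.1% phloridzin and 14 fell with 0.5%, and of the repressed genes, 15 and 13 rose. Against untreated, 9.03% of all genes fell and 7.77% rose with 0.1% phloridzin, and 6.2% fell and 6.54% rose with 0.5%. Leaving out single arrays gave 9 to 18 sustained genes lower after STZ, 18 without STZ replicate 1, and 9 to 15 repressed genes higher. With arrays scaled to spike-in controls 6 sustained genes fell after STZ, 13 with 0.1% and 5 with 0.5% phloridzin, and 14, 9 and 15 repressed genes rose. With 0.5% phloridzin, leaving out single arrays gave 9 to 17 sustained genes lower. These lists were drawn up with earlier results of these data known and are not independent evidence of a direction.

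Among regulators of the hepatic growth hormone response, 14 of 18 passed the filter, and after STZ none rose and 1 fell, 7.14% against 13.8% of all genes. It was the pioneer factor Foxa1 at -0.81 (adjusted p = 0.000252, limma). With 0.1% phloridzin 1 rose and 3 fell: Esr1 was at 0.46 (0.0483), Foxa1 at -0.64 (0.00178), Nr3c1, the glucocorticoid receptor, at -0.55 (0.0137), and Onecut1, a liver factor that cooperates with STAT5 at some growth hormone targets, at -1.84 (0.00143). With 0.5% none rose and 3 fell, Foxa1, Onecut1 at -1.36 (0.0137) and Nr0b2 at -0.56 (0.0481). The called share was 28.6% with 0.1% against 16.8% of all genes, and 21.4% with 0.5% against 12.7%. Onecut1 was at -0.91 after STZ alone (0.0875). Without STZ replicate 1, 2 regulators rose and 2 fell after STZ, and with arrays scaled to spike-in controls 1 rose and 0 fell. In the comparisons of phloridzin with STZ and of the doses, 0 genes of these 6 lists passed in limma, and 0 to 2 genes of each list had an unadjusted p under 0.05. The share of all genes at that unadjusted threshold is not given here.

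The genes whose log2 signal most resembled that of a member over the 20 arrays are given as a description. For Ghr they were Aox3, Lect2 and Nudt7, with a Pearson r of 0.97, 0.96 and 0.96. For Bcl6 they were Bach2, Tmem39a and Ces4a (0.85, 0.83 and 0.83), and for Egfr they were Serpina9, Golga4 and Gpkow (0.91, 0.90 and 0.88). For Igf1 they were the mitochondrial gene ND5, Sec62 and Yif1b (0.80, 0.80 and 0.79). All 20 points share the group differences and the scaling of each array.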

How the data were processed

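Liver RNA of 20 mice, 5 per group, was measured on 1 Affymetrix array each. The deposited values were intensity values, a linear signal per probe set that the authors had scaled to a trimmed mean of 100 (lowest and highest 2% dropped); the name of the software was not given in the sources used here. From 45101 probe sets, the 64 controls, 932 with several genes and 9160 with no listed gene were left out. Log2 of signal plus 16 was fitted for the gene's brightest probe set, with genes kept at a mean signal at or above the 40th percentile (9.00). Limma 3.58.1 in R 4.3.3 fitted 4 group means (16 residual degrees of freedom, 4.54 from the prior), two-sided, with Benjamini-Hochberg adjustment. Permutation tests used Python 3.11.15 with scipy 1.17.1. Tested on simulated data with 200 changed genes of 12952 in groups of 5, the procedure called 89.2% of genes changed 2-fold. It called 51.4% of those changed 1.5-fold, and 5.77% of its calls were false. The simulated noise was normal and independent between genes, with no shift of whole arrays, so these rates may not hold for the real arrays.

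The members, the gene lists and the marker lists were chosen with earlier results of these data known. Named genes were the 10 members, up to 6 called genes by smallest p of each list and comparison (of the 2 growth hormone lists, 3 of these each), the 3 genes most like Ghr, Igf1, Bcl6 and Egfr, and Cyp4a14. Replicate numbers are shared between groups but no label ties them to a litter or day: log2 deviations of same-numbered mice correlated between -0.40 and 0.50 over 30 pairs (13 over 0.1), so mice were not paired. Alternatives covered scaling, filter, probe set, weights, prior, pseudocount, samples in the fit, the replicate block and each array left out; scaling to spike-in controls, selection by mean log2 and leaving out both unusual mice together were added after seeing the data. Promoter windows and start sites are from RefSeq (GRCm38.p6).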

Additional observations from a re-analysis of the deposited data

Results flagged for a closer look

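Of 40 groups of 5 values (10 genes in 4 groups) tested for a lone value with Dixon's ratio, 1 exceeded the critical value of 0.71, and chance flags about 1 in 20 groups. Igfals in 0.1% phloridzin replicate 5 read 206.9, against 318 to 356 in the other 4 mice of its group. The same mouse had the lowest Ghr (2580), Stat5a (47.2) and Bcl6 (131) of its group.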

How the results depend on the processing

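The number of members called was within 1.5 times its value for STZ and for both phloridzin groups against untreated (5, 4 and 4) under quantile normalization, median centring, either filter, averaged probe sets, the other prior, array weights, fits of only the 2 groups, the smaller pseudocount and the replicate block. The replicate block left these counts at 5, 4 and 4, and 0 members were called against STZ or between doses; it changed no member's call. The call of any difference among the 4 groups went from 5 members to 3 with median centring, with no filter, with the mean of probe sets and with a pseudocount of 1. As each array was left out in turn the counts ran from 4 to 5 for STZ, 3 to 4 for 0.1% and 3 to 6 for 0.5% phloridzin against untreated, 3 to 5 for any difference, and 0 to 0 for the other comparisons. With arrays scaled to spike-in controls, added after seeing the data, 0, 2 and 1 members were called against untreated and 2 for any difference; the cause of the spike difference was not tested. One Egfr probe set with a mean of 23.2 reversed, to 0.0704 with 0.1% and 0.142 with 0.5% phloridzin against untreated (adjusted p 0.854 and 0.706, limma). Median centring moved the share of higher calls over all genes for STZ against untreated from 49.9% to 69.0%. With 5 arrays a group, the number of arrays limits precision, and Socs2 and Cish lie nearest the background.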
